A study of Rattus norvegicus with 6 samples.

Results

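The genes described here are 48 interneuron identity genes, neuropeptide precursor genes and neuropeptide receptor genes, listed by symbol and looked up in the mRNA table of each library. All 48 symbols were found among the 35362 of the table. The list holds 15 peptide precursor genes, 18 peptide receptor genes, 10 other markers of interneurons and 5 homeobox transcription factor genes. The tissue was whole hippocampus of Sprague-Dawley rats with a labelled age of 7 weeks. The B[a]P rats received benzo[a]pyrene, a polycyclic aromatic hydrocarbon from incomplete combustion, in corn oil by daily oral gavage at 2.0 mg/kg. The control rats received the same volume of corn oil. Whether animals were pooled is not stated, and the labels give the length of gavage, 7 weeks, for the RNA-seq libraries only. Whether the labelled age is that at the start or the end is not stated. Each condition had 1 RNA-seq library and 1 bisulfite library of reduced representation (RRBS), so every value below compares 2 libraries and no test of the treatment was possible.

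Interneurons are the GABA-releasing minority of hippocampal neurons. They are sorted into classes by the peptides, calcium-binding proteins and transcription factors they carry: parvalbumin cells inhibit the cell bodies of principal neurons, somatostatin cells their distal dendrites, and many VIP cells inhibit other interneurons. Neuropeptides are cut from larger precursors, stored in dense core vesicles and released during sustained firing, and they act on G protein-coupled receptors. Several of these peptides are not confined to interneurons in hippocampus: dynorphins and enkephalins are also made by dentate granule cells and cholecystokinin by pyramidal cells.

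The promoters of 36 of the 48 genes were in the RefSeq promoter table (assembly GRCr8, 250 bases before to 50 after the annotated start). Those of Cck, Penk, Tac3, Crh, Calb2, Ndnf, Dlx2, Dlx5, Dlx6, Oprk1, Oprl1 and Pnoc were not, so these genes were not searched. The 36 promoters were searched for TGACGTCA, the palindromic cAMP response element. It reads the same on both strands, and through it the factor CREB couples activity to transcription. It was present in the promoters of Sst, Cartpt, Sstr2 and Nos1, that is in 4 of 36. Of the 27457 symbols in the table, 2.00% had it. These shares cannot be set against each other, and enrichment was not tested. The element holds a cytosine followed by a guanine (CpG). The 36 promoters held a median of 19 CpG dinucleotides, against 7 for all promoters. The table also holds 33469 promoters for its 27457 symbols, so some symbols had several, while the 36 genes entered with 36. The element began 142 bases before the annotated start in Cartpt, 73 bases before it in Sstr2, 9 bases before it in Nos1, and 2 bases after it in Sst. A match of these letters is a description of the sequence only. The 4 promoters are shown because they belong to genes on both sides of the expression comparison below, with the element in capitals.
Sst (GRCr8 chr11:90461296-90461595, + strand): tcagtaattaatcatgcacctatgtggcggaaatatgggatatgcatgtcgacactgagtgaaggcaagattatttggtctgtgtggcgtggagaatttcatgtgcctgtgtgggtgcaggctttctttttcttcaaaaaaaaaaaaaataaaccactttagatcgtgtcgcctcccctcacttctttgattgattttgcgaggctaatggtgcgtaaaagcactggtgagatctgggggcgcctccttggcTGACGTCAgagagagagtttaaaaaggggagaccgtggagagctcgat
Cartpt (GRCr8 chr2:32991186-32991485, - strand): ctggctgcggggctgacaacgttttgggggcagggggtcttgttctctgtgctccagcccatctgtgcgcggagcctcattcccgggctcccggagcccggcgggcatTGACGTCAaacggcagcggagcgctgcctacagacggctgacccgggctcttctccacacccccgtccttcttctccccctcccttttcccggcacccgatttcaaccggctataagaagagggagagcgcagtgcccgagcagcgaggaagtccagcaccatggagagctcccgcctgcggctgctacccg
Sstr2 (GRCr8 chr10:99163103-99163402, + strand): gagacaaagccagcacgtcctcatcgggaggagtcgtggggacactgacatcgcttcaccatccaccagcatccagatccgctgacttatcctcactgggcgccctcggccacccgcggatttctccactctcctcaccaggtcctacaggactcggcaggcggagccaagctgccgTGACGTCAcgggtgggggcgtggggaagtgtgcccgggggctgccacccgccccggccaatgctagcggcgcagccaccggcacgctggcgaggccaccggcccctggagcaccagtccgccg
Nos1 (GRCr8 chr12:44371788-44372087, - strand): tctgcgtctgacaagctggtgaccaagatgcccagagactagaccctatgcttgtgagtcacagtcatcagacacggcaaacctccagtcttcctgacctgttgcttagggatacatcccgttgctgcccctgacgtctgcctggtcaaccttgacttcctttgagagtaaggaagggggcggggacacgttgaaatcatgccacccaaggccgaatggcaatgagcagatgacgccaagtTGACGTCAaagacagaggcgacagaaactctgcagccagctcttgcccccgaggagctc

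Levels of these genes after B[a]P were compared with those in control hippocampus. Levels are in FPKM, fragments scaled by transcript length and library size, so that genes can be compared per length. None of the 48 genes differed by 1.5-fold on the scale of log2(FPKM + 1), in either direction. Of the 48, 41 reached 1 FPKM in either library, 6 lay below it in both, and Npy, which encodes neuropeptide Y, was listed at 0 in both. Among all 13261 symbols at 1 FPKM or more, 0.603% were higher by 1.5-fold or more with B[a]P and 1.18% were lower by as much, and 0.151% and 0.52% passed 2-fold in those directions, so that 0 of 41 is close to what that background gives. The median log2 ratio of the 41 genes was 0.07, against 0.09 for all 13261 symbols, and 20 of the 41 lay above that overall median. The order of these medians depends on the pseudocount: with 0.1 FPKM it was 0.11 for the genes and 0.10 for all symbols. In the B[a]P library 32 of the 41 genes (78.0%) had the higher value, as did 74.5% of all symbols. The ratios were within 1.2-fold for 34 of the 41 genes (82.9%) and for 79.8% of all symbols.

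**Figure D1:**
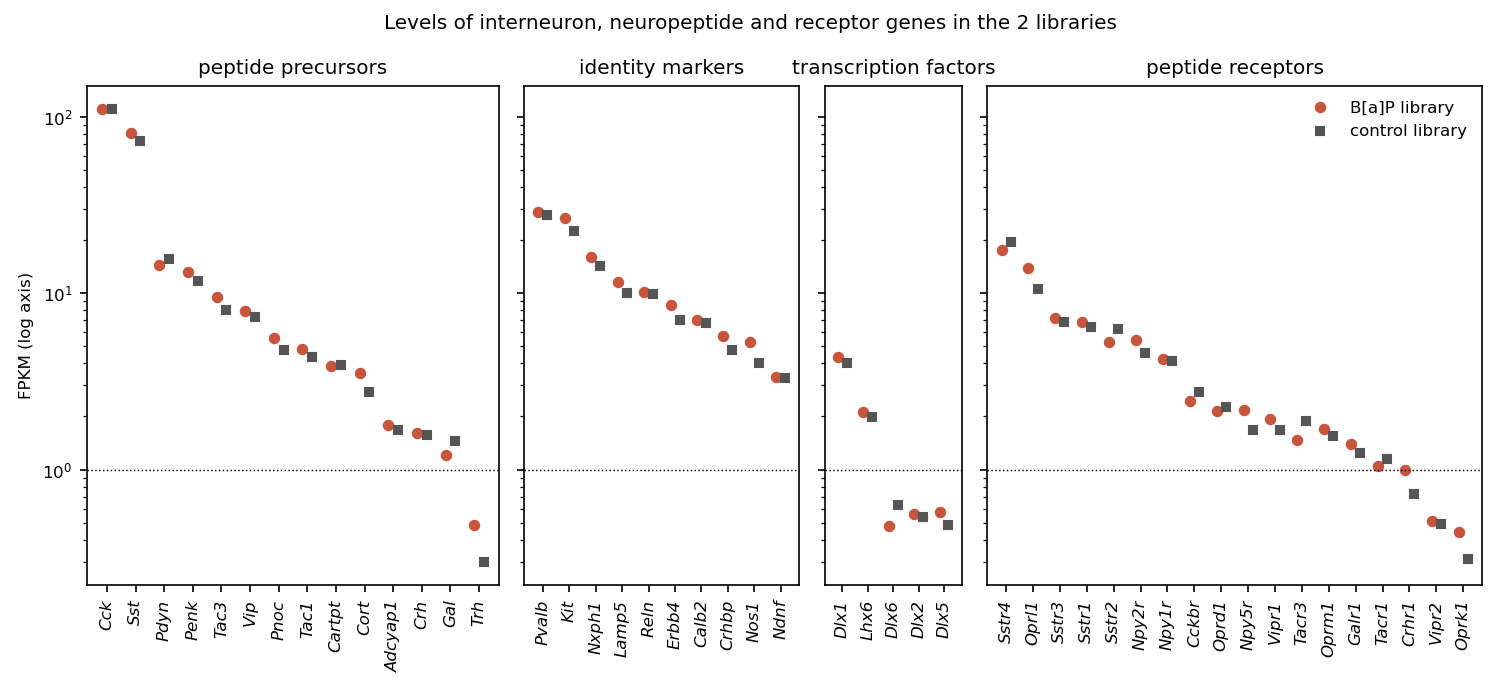
FPKM on a log axis of each gene listed above 0, by role and in order of level. Circles are the B[a]P library and squares the control library, with 1 library per condition and no error bars; the dotted line is 1 FPKM. The symbols of each gene lie close together from Cck at about 110 FPKM down to Trh and Oprk1 under 0.5 FPKM.

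Without replicate libraries, the only error that could be estimated was that of counting. Read numbers do not come with these values, and totals inferred from the steps between low values were 43.8 M read pairs in the B[a]P library and 46.4 M in the control library, so that 1 FPKM stood for 43.8 pairs per kilobase in the B[a]P library. For each gene the smallest whole numbers of reads that give both values were taken, and 95% intervals of the ratio were computed from that many reads counted as pairs. Being built on the smallest read numbers, these intervals are wide rather than narrow, and they do not cover differences between animals. At the true read numbers, which are not known, an interval that holds 1 or the median ratio of all symbols could exclude it. Relative to the median ratio of all symbols, 1.07, the interval lay above for 4 of the 41 genes (9.76%) and below for 6 (14.6%). For all symbols these shares were 15.3% and 15.7%.

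**Figure D2:**
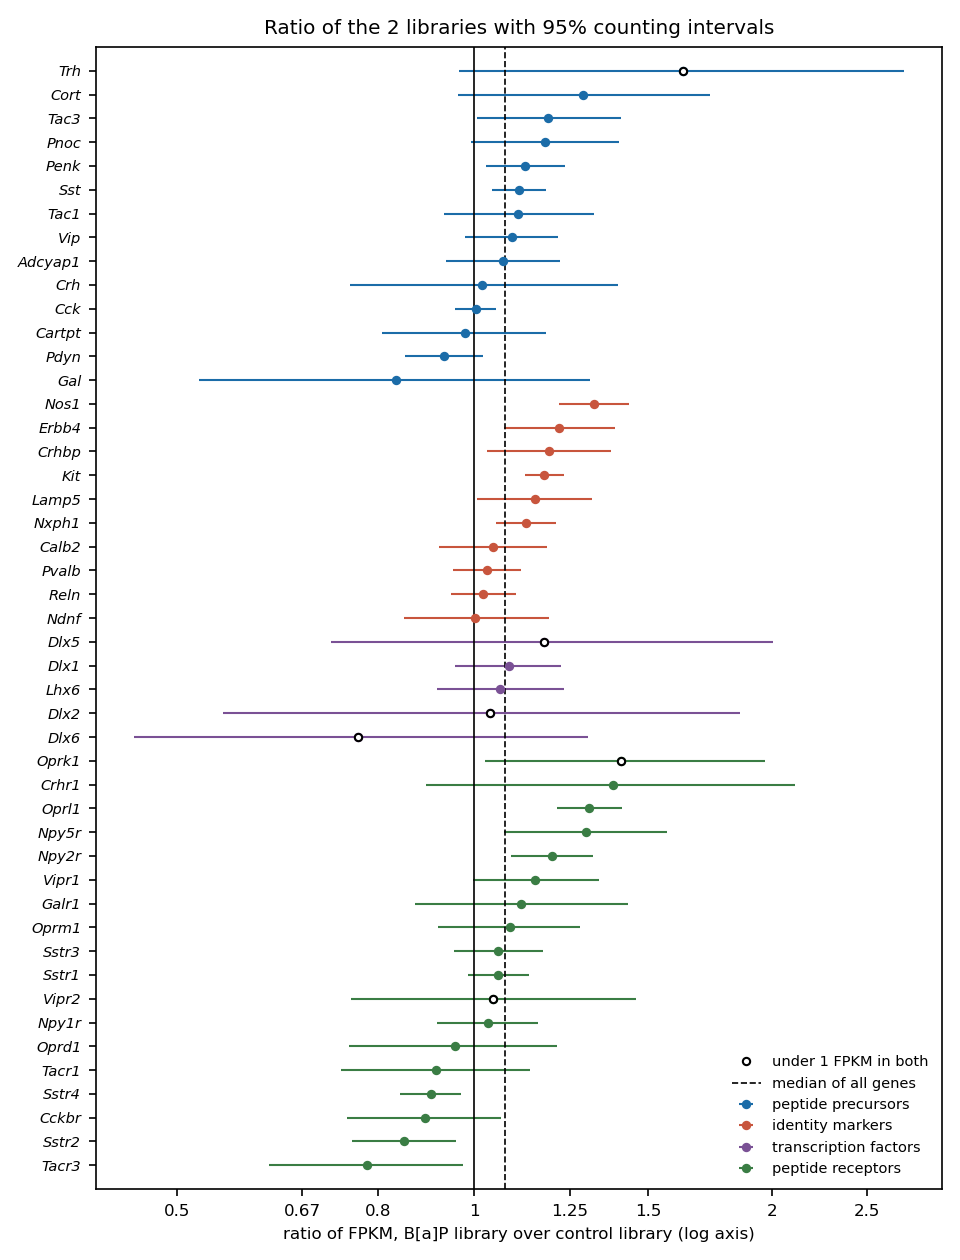
Ratio of the FPKM of the B[a]P library to that of the control library on a log axis, for the 47 genes listed above 0, grouped by role. Bars are 95% intervals for counting error only, white circles are genes under 1 FPKM in both libraries, the solid line is 1 and the dashed line the median of all symbols, 1.07. Oprl1, Nos1, Kit and Npy2r lie right of the dashed line with their whole interval, and Tacr3, Sstr2, Sstr4, Cckbr, Pdyn and Cck left of it.

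Among peptide precursors, Cck and Sst stood far above the rest and together held 73.8% of the summed FPKM of the 15 genes in the B[a]P library and 74.3% in the control library. Cck, which encodes cholecystokinin, was at 110.8 FPKM with B[a]P against 110.4 FPKM in control. Its ratio of 1.003 (95% counting interval 0.956 to 1.05) lay below the common ratio of 1.07. Sst, which encodes somatostatin and marks the cells that inhibit distal dendrites, was at 80.7 FPKM with B[a]P against 72.7 FPKM in control, from at least 3997 (B[a]P) and 3816 (control) reads. Its ratio was 1.11 (1.04 to 1.18), which holds the common ratio. Cort, which encodes the related peptide cortistatin, was at 3.54 FPKM with B[a]P against 2.74 FPKM in control. Only 213 (B[a]P) and 175 (control) reads were needed to give these values, and the interval of its ratio of 1.29, from 0.963 to 1.73, holds both 1 and the common ratio.

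The 3 opioid peptide precursors did not share a direction. Pdyn, the dynorphin precursor gene of dentate granule cells, was at 14.5 FPKM with B[a]P against 15.5 FPKM in control. Its ratio of 0.932 (0.851 to 1.02) was the lowest of the peptide precursors above 10 FPKM, and the interval lay below the common ratio but held 1. Penk, the enkephalin precursor gene, was at 13.2 FPKM with B[a]P against 11.7 FPKM in control, and Pnoc, the precursor gene of nociceptin, at 5.58 FPKM with B[a]P against 4.73 FPKM in control. Their ratios of 1.13 (1.03 to 1.24) and 1.18 (0.993 to 1.40) both held the common ratio. The 3 genes together summed to 33.2 FPKM with B[a]P against 31.9 FPKM in control.

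Both tachykinin genes had the higher value in the B[a]P library. Tac3, which encodes neurokinin B, was at 9.47 FPKM with B[a]P against 7.97 FPKM in control, and Tac1, the precursor gene of substance P, at 4.81 FPKM with B[a]P against 4.35 FPKM in control. Vip encodes vasoactive intestinal peptide, and many of the cells that carry it inhibit other interneurons. Vip was at 7.96 FPKM with B[a]P against 7.30 FPKM in control, with a ratio of 1.09 (0.979 to 1.22). Adcyap1, which encodes PACAP, a relative of VIP, was at 1.79 FPKM with B[a]P against 1.68 FPKM in control. Cartpt, the precursor gene of the CART peptides, was at 3.85 FPKM with B[a]P against 3.93 FPKM in control. Crh, which encodes corticotropin-releasing hormone, the peptide that starts the hormonal stress response and is made by interneurons in hippocampus, was at 1.60 FPKM with B[a]P against 1.58 FPKM in control, a ratio of 1.02 (0.749 to 1.40). Every interval in this group except that of Tac3 (1.01 to 1.41) held 1, and all of them held the common ratio.

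The lowest peptide genes had the widest counting error. Gal, which encodes galanin, was at 1.21 FPKM with B[a]P against 1.45 FPKM in control, values that 74 (B[a]P) and 94 (control) reads can give. Trh, which encodes thyrotropin-releasing hormone, was below 1 FPKM in both libraries, at 0.486 FPKM with B[a]P against 0.298 FPKM in control. Its ratio of 1.63 was the largest of the 47 genes listed above 0, but 83 (B[a]P) and 54 (control) reads suffice for it and its interval ran from 0.966 to 2.72. The intervals of Gal and Trh thus held 1 at these smallest read numbers, and the true read numbers are not known. Npy is an abundant peptide gene of hippocampal interneurons, and its value of exactly 0 in both libraries, beside receptors and interneuron markers that were all measured, can be a failed estimate rather than an absence of reads. No level of Npy is given for that reason, and 17.3% of all symbols were listed at 0 in both libraries.

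The 10 other markers of interneurons all had the higher value in the B[a]P library, which 74.5% of all symbols did, and their median log2 ratio of 0.17 was the highest of the 4 roles. With each library divided by its median, the log2 ratios of Pvalb, Calb2, Reln and Ndnf were below 0. Pvalb, which encodes the calcium-binding protein of fast-spiking basket cells, was the most abundant, at 28.6 FPKM with B[a]P against 27.8 FPKM in control. Its ratio of 1.03 (0.951 to 1.11) held 1. Kit, which encodes the receptor tyrosine kinase for stem cell factor, was at 26.6 FPKM with B[a]P against 22.6 FPKM in control. From at least 7879 (B[a]P) and 7093 (control) reads its ratio was 1.18 (1.12 to 1.23), above the common ratio. Nos1, which encodes the neuronal nitric oxide synthase, was at 5.28 FPKM with B[a]P against 3.99 FPKM in control, the largest ratio of these 10 at 1.32 (1.22 to 1.43) and also above the common ratio. A ratio as high or higher on the log2(FPKM + 1) scale was found in few symbols: 96.2% of all symbols had a lower one than Nos1.

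Erbb4, the neuregulin receptor gene that interneurons need to form their synapses, was at 8.60 FPKM with B[a]P against 7.05 FPKM in control, a ratio of 1.22 (1.07 to 1.39). Crhbp, which encodes the protein that binds and holds back corticotropin-releasing hormone, was at 5.70 FPKM with B[a]P against 4.78 FPKM in control. Lamp5, a marker of neurogliaform cells, was at 11.5 FPKM with B[a]P against 10.03 FPKM in control, and Nxph1, which encodes a ligand of neurexins, at 16.04 FPKM with B[a]P against 14.2 FPKM in control. At the smallest read numbers, the intervals of these 4 genes lay above 1 and held the common ratio. Calb2, the calretinin gene, at 7.04 FPKM with B[a]P against 6.73 FPKM in control, and Reln, which encodes the secreted glycoprotein reelin, at 10.1 FPKM with B[a]P against 9.93 FPKM in control, had ratios of 1.04 and 1.02. Ndnf, a secreted factor gene of neurogliaform and Cajal-Retzius cells, was at 3.33 FPKM with B[a]P against 3.32 FPKM in control. For Calb2, Reln and Ndnf, which Cajal-Retzius cells also carry, the intervals held both 1 and the common ratio.

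The transcription factors were low in both libraries. Dlx1 was at 4.35 FPKM with B[a]P against 4.02 FPKM in control, and Lhx6, a factor of the interneurons born in the medial ganglionic eminence, at 2.11 FPKM with B[a]P against 1.99 FPKM in control. Dlx5 (0.574 FPKM with B[a]P against 0.488 FPKM in control), Dlx2 (0.559 FPKM with B[a]P against 0.539 FPKM in control) and Dlx6 (0.482 FPKM with B[a]P against 0.632 FPKM in control) lay under 1 FPKM, on as few as 49 to 75 reads per library. Dlx homeobox genes specify forebrain interneurons and lie in close pairs. Whether counting used the strand is not given, so reads of their antisense transcripts cannot be told from theirs. All 5 intervals held 1.

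Receptor genes held the highest and the lowest log2 ratios of the 41 genes. Oprl1, which encodes the nociceptin receptor, was at 13.9 FPKM with B[a]P against 10.6 FPKM in control, a ratio of 1.31 (1.21 to 1.41), and 97.1% of all symbols had a lower log2 ratio. It made up 76.4% of the summed FPKM of the 4 opioid-type receptors in the B[a]P library and 72.0% in the control library. The classical opioid receptors were much lower. Oprd1, the delta receptor gene, was at 2.15 FPKM with B[a]P against 2.25 FPKM in control, and Oprm1, the mu receptor gene, at 1.69 FPKM with B[a]P against 1.56 FPKM in control. Oprk1, the kappa receptor gene, was at 0.441 FPKM with B[a]P against 0.313 FPKM in control, and its ratio of 1.41 (1.02 to 1.97) lay above 1 but held the common ratio. Oprm1 also had a line in the authors' lncRNA table, which was not compared with the mRNA table, at 1.10 FPKM with B[a]P against 1.11 FPKM in control.

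Of the somatostatin receptors, Sstr4 made up 47.4% of the summed level with B[a]P and 49.8% in control. Sstr4 was at 17.5 FPKM with B[a]P against 19.3 FPKM in control, a ratio of 0.904 (0.842 to 0.971). Sstr2, the receptor gene whose promoter holds the cAMP response element shown above, was at 5.29 FPKM with B[a]P against 6.22 FPKM in control, a ratio of 0.850 (0.752 to 0.958). Both intervals lay below 1. Sstr1 was at 6.82 FPKM with B[a]P against 6.44 FPKM in control and Sstr3, a receptor of neuronal cilia, at 7.26 FPKM with B[a]P against 6.86 FPKM in control, each with a ratio of 1.06 and an interval holding 1. The 4 receptors thus did not move together, and their sum was 36.8 FPKM with B[a]P against 38.9 FPKM in control.

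The 3 neuropeptide Y receptors had the higher value in the B[a]P library, except Npy1r when each library was divided by its median. Npy2r, the presynaptic receptor that limits glutamate release, was at 5.46 FPKM with B[a]P against 4.55 FPKM in control, a ratio of 1.199 (1.09 to 1.32) above the common ratio. Npy5r was at 2.17 FPKM with B[a]P against 1.67 FPKM in control, a ratio of 1.30 (1.07 to 1.57) that held it. Npy1r was at 4.25 FPKM with B[a]P against 4.12 FPKM in control, a ratio of 1.03 (0.917 to 1.16). Npy1r and Npy5r are neighbouring genes that run in opposite directions, and their ratios have overlapping intervals.

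Tacr3, the neurokinin B receptor gene, had the lowest ratio of the 41 genes, at 1.46 FPKM with B[a]P against 1.88 FPKM in control. At 277 (B[a]P) and 377 (control) reads its ratio was 0.778 (0.620 to 0.974), while its ligand gene Tac3 had a ratio of 1.19 (1.01 to 1.41). The intervals of ligand and receptor do not overlap, which also held for Sst against Sstr2 and Sstr4. Those of Pdyn (up to 1.020) and Oprk1 (from 1.024, under 1 FPKM in both libraries) were apart by a narrow gap. Intervals did overlap for Sst against Sstr1 and Sstr3, Cck against Cckbr, Tac1 against Tacr1, and Pnoc against Oprl1. The same was true of Vip against Vipr1 and Vipr2, Crh against Crhr1, and Gal against Galr1. Pairs of ligand and receptor were not counted as a set, and no difference within a pair was tested. Tacr1, the substance P receptor gene, was at 1.05 FPKM with B[a]P against 1.15 FPKM in control with an interval holding 1. Cckbr, the main brain receptor gene for cholecystokinin, was at 2.45 FPKM with B[a]P against 2.75 FPKM in control, a ratio of 0.891 (0.743 to 1.06) below the common ratio. Vipr1 was at 1.93 FPKM with B[a]P against 1.67 FPKM in control and Vipr2 at 0.513 FPKM with B[a]P against 0.490 FPKM in control; they encode receptors shared by VIP and PACAP. Galr1, a galanin receptor gene, was at 1.39 FPKM with B[a]P against 1.248 FPKM in control. Crhr1, the main receptor gene for corticotropin-releasing hormone, was at 1.001 FPKM with B[a]P against 0.724 FPKM in control, and its ratio of 1.38 rested on as few as 107 (B[a]P) and 82 (control) reads (0.894 to 2.11). The last 4 receptors had intervals that held the common ratio.

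**Figure D3:**
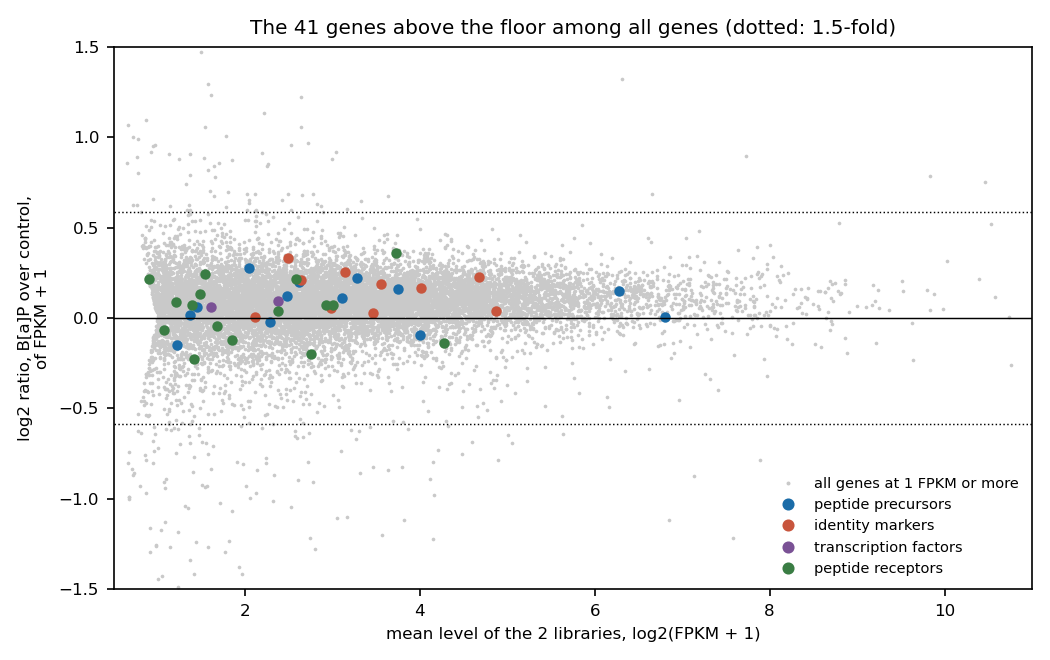
Log2 ratio, B[a]P over control, computed from FPKM + 1, against the mean level, for all 13261 symbols at 1 FPKM or more (grey) and for the 41 genes above that floor (coloured by role). Dotted lines mark 1.5-fold, and 43 symbols beyond 1.5 on the log2 axis are not shown. All 41 coloured points lie between -0.23 and 0.36.

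Related genes outside the 48 were described by the same measures, with 1.5-fold again taken on the log2(FPKM + 1) scale. Of 26 other interneuron genes above the floor, 0 passed 1.5-fold and their median log2 ratio was 0.10. Gad1 and Gad2, which encode the enzymes that make GABA, were at 40.3 FPKM with B[a]P against 33.7 FPKM in control and 36.2 FPKM with B[a]P against 30.2 FPKM in control. The largest differences of that list were Grik1 (2.92 FPKM with B[a]P against 2.21 FPKM in control), Elfn1 (2.59 FPKM with B[a]P against 3.37 FPKM in control) and Npas1 (6.56 FPKM with B[a]P against 5.24 FPKM in control). Of 17 genes of peptide processing and dense core vesicles, 0 passed 1.5-fold (median 0.08), with Chgb, a granin gene, at 160.02 FPKM with B[a]P against 132.9 FPKM in control. Pcsk1, which encodes a prohormone convertase, had the largest log2 ratio of that list, at 1.27 FPKM with B[a]P against 0.785 FPKM in control. Of 10 other peptide precursor genes above the floor, 1 was at least 1.5-fold lower: Pomc, at 1.92 FPKM with B[a]P against 7.50 FPKM in control. Hcrt, the orexin gene of the hypothalamus, was at 1.99 FPKM with B[a]P against 1.08 FPKM in control and Grp, which encodes gastrin-releasing peptide, at 12.1 FPKM with B[a]P against 8.25 FPKM in control. Of 15 other peptide receptor genes, 1 was at least 1.5-fold higher: Rxfp3, the relaxin-3 receptor gene, at 2.84 FPKM with B[a]P against 1.41 FPKM in control. Trhr2, a receptor gene for thyrotropin-releasing hormone, was at 0.597 FPKM with B[a]P against 1.12 FPKM in control. The remaining peptide and receptor genes of both lists were within 1.5-fold on the log2(FPKM + 1) scale. Without the pseudocount, Pcsk1 (ratio 1.62), Hcrt (1.84), the receptor gene Mc4r (1.54) and Trhr2 (0.534) also passed 1.5-fold. The counting interval lay above the common ratio for 23.1% and below it for 19.2% of the other interneuron genes. It lay above for 3 and below for 3 of the 10 other peptide genes, and these shares were 33.3% and 33.3% for the other receptor genes, and 23.5% and 23.5% for the processing genes. All these shares are above those of the 48, a difference that was not tested.

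Other groups of genes differed more between the same libraries. Each of the 11 choroid plexus markers above 1 FPKM was lower by 2-fold or more with B[a]P, where the list summed to 66.0 FPKM against 3437 FPKM in the control library. Of 14 immediate early genes, which neuronal activity induces, 1 was at least 1.5-fold lower on the log2(FPKM + 1) scale. This was Arc, at 20.8 FPKM with B[a]P against 36.5 FPKM in control, and the list's median log2 ratio was -0.29. Without the pseudocount, Fos (ratio 0.619), Nr4a1 (0.629), Egr1 (0.656) and Egr2 (0.531) were also lower by more than 1.5-fold. Neuron markers had a median of 0.19, summing to 2139 FPKM with B[a]P against 1861 FPKM in control, and the 8 oligodendrocyte markers a median of -0.17. The 7 astrocyte markers had a median of 0.33, and 2 of 9 meningeal and vascular markers were lower by 2-fold or more. Markers of neighbouring regions were within 1.5-fold on the log2(FPKM + 1) scale for the 6 striatal, 10 neocortical, 4 thalamic and 4 amygdalar genes above the floor, with medians of 0.03, -0.05, 0.04 and -0.04. Of 10 hypothalamic markers only Pomc and Hcrt, given above, reached the floor, with a median of -0.51, and Otp was at 0 in both libraries. No marker of the neuron list was at 0, but Eno2, the neuronal enolase gene, stood at 0.087 FPKM with B[a]P against 0.082 FPKM in control, a very low value for an abundant neuronal gene. In whole tissue, fewer cells of a type and less RNA per cell cannot be told apart. The part of cell makeup in the ratios of the 48 genes was not tested.

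The RRBS libraries allowed a second measure, methylation of cytosines in CpG dinucleotides at promoters, where CpG-rich promoters of active or poised genes are usually unmethylated. The promoter sequences of 13 of the 36 genes were placed on the RRBS positions by the spacing and context of their cytosines, with 5 or more CpG cytosines read in both libraries. The 36 promoters held between 2 and 47 CpG dinucleotides with a median of 19, against 7 for all promoters, and the 13 placed ones held 15 to 47. All 13 were almost free of methylation in both libraries, in percent of reads summed over CpG cytosines. The range was 0.267% (Reln) to 2.29% (Gal) in the B[a]P library and 0.391% (Reln) to 2.66% (Gal) in the control library. Their sequences are shown as the ends of that range, with CpG dinucleotides in capitals.
Gal (GRCr8 chr1:210084523-210084822, - strand): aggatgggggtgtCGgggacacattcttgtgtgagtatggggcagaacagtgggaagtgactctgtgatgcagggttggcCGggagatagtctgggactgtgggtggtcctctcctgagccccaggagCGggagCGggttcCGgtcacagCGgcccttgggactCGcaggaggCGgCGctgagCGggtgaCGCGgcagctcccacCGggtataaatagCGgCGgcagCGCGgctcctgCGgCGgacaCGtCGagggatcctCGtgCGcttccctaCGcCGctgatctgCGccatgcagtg
Reln (GRCr8 chr4:13628318-13628617, + strand): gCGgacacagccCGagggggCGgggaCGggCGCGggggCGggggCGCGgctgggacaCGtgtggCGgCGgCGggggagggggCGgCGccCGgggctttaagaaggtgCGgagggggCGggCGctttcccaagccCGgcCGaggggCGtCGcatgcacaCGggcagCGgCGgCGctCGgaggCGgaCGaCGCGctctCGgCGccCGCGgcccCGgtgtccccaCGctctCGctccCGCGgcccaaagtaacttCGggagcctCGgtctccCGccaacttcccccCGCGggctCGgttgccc

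At the Gal promoter, reads were summed over 32 CpG cytosines, so a read counts at each cytosine that it covers. Of these counts, 58 of 2535 were methylated in the B[a]P library and 88 of 3313 in the control library (95% Wilson intervals 1.77% to 2.95% and 2.16% to 3.26%). The median per cytosine was 70 reads with B[a]P and 118 in control. At the Reln promoter the summed counts were 6 of 2246 with B[a]P and 12 of 3068 in control, over 21 cytosines. The Cartpt promoter, which holds the cAMP response element, had 1.57% in the B[a]P library and 2.37% in the control library. Pvalb stood at 1.68% with B[a]P against 1.69% in control, Dlx1 at 0.624% with B[a]P against 0.851% in control, Lhx6 at 0.604% with B[a]P against 0.792% in control and Erbb4 at 0.678% with B[a]P against 0.974% in control. Receptor promoters were as low: Crhr1 had 1.46% with B[a]P against 2.04% in control, Vipr2 1.22% with B[a]P against 1.63% in control, Sstr4 0.866% with B[a]P against 0.885% in control, Oprd1 0.756% with B[a]P against 0.826% in control and Vipr1 0.545% with B[a]P against 0.732% in control. Nxph1 was at 0.888% with B[a]P against 1.49% in control. The intervals of the libraries overlapped for all 13 promoters, and the share that overlapped among all placed promoters was not computed. These intervals cover counting error only, and cytosines on the same fragment are not independent.

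All 13 promoters had the lower value in the B[a]P library. The differences, B[a]P minus control, were small, from -0.0064 points (Pvalb) to -0.798 points (Cartpt). How levels this low compare with the error of the assay was not tested. Of all 5734 placed promoters 67.5% did, with medians of 0.989% in the B[a]P library and 1.22% in the control library, so a lower value was common. No promoter of the 13 differed by 10 percentage points, which 0.227% of all placed promoters did. Of their 324 CpG cytosines, 0 reached 20% methylation in either library, 174 had no methylated read in the B[a]P library and 152 had none in the control library. In 2 cytosines the difference reached 10 points, each from few methylated reads. In Vipr1, 2 bases before the start, these were 1 of 51 reads in the B[a]P library against 9 of 69 in the control library. In Lhx6, 50 bases before the start, these were 1 of 43 with B[a]P against 3 of 23 in control. For the CpG cytosines of all placed promoters, shares to set beside these counts were not computed.

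**Figure D4:**
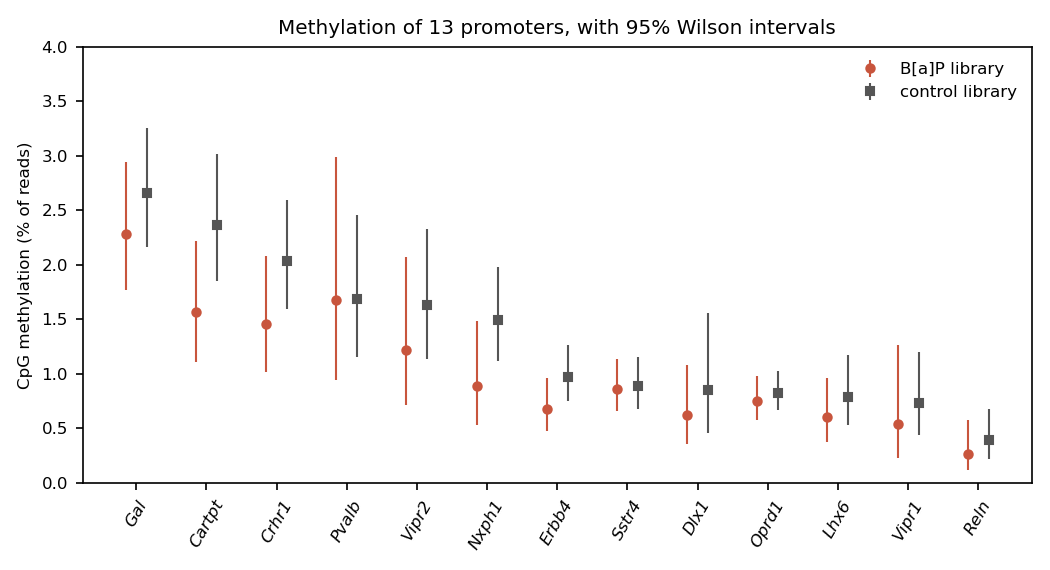
CpG methylation, in percent of reads summed over the CpG cytosines read in both libraries, of the 13 promoters that could be placed. Circles are the B[a]P library and squares the control library, and bars are 95% Wilson intervals for counting error only. Every promoter lies under 3% in both libraries, and the intervals of each promoter overlap.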

How the data were processed

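RNA and DNA were extracted from flash-frozen hippocampus, per the labels' protocols, and libraries were grouped by their titles. Builds rn6 and rn5 and the tool bcl2fastq appear, with no role, in the submitters' processing notes. For the aligner, counter and methylation caller, names are not given in the sources used here, nor is an annotation. The deposited mRNA and lncRNA tables were taken as FPKM from their values, since no label names the unit.

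The log2 ratio of B[a]P to control was computed with a pseudocount of 1 FPKM, which understates the ratio of low genes. Symbols reaching 1 FPKM in B[a]P or control were kept, and 1.5-fold and 2-fold were the size rules. Printed ratios carry no pseudocount. No p-value was computed. The members and lists were chosen with earlier results of these data known. All 48 members are named. Of the other interneuron, peptide, receptor and processing lists, up to 3 genes with the largest log2 ratios are named. Gad1, Gad2, Otp, Eno2, Fos, Nr4a1, Egr1 and Egr2 were added after their values were seen. The remaining lists are given mostly by counts and medians.

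Relative depth came from 3143 symbols under 0.05 FPKM: for 80.9% the B[a]P over control ratio was a ratio of whole numbers no larger than 6, multiplied by 1.06, within 1e-05 on the natural log scale, and for 0% at shifted constants. The total was the largest at which lengths of low symbols came out whole, within 0.03, which held for 90.7% of 2466 symbols against 6.01% at shifted totals. Whether mates of a pair were counted separately is not stated. Reads were counted against totals of 87.7 M and 92.9 M, and halved for exact conditional binomial intervals. Read numbers are the smallest that give both values at lengths of 150 to 15000 bases.

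The deposited RRBS tables give counts of methylated and unmethylated reads and the level in percent for each cytosine, per the file headers, with at least 10 reads at every site. A promoter was placed where all deposited cytosines in its window, 30 or more, had the expected context at exactly 1 position. Of 6851 placed promoters, 99.2% fell on their own chromosome, and only those were used. This measure was added after the data were seen. The recovery of read numbers and the placement of promoters were also run on simulated data, with outcomes that are not given here. Python 3.11.15, numpy 2.4.6, pandas 2.3.3 and scipy 1.17.1 were used.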

Additional observations from a re-analysis of the deposited data

How the results depend on the processing

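The count of 0 members past 1.5-fold was the same in both directions with a pseudocount of 0.1, with no pseudocount, with no floor, with a floor of 5 FPKM and with each library divided by its median. Each setting changed 1 choice only, so genes under the floor were always judged with a pseudocount. With neither floor nor pseudocount, Trh would pass 1.5-fold at its ratio of 1.63. The median log2 ratio of the members, 0.07, was 0.11 with a pseudocount of 0.1, 0.12 with none, 0.15 with the floor of 5 FPKM, which leaves 22 members, and 0.012 with median scaling, which leaves 40, without Crhr1. The medians of all symbols under these settings were 0.10, 0.10, 0.10 and 0.011, so that the members lay below all symbols as first computed and above them in these 4 settings. Under median scaling the receptor median was -0.0071, and Cck (-0.08) and Kit (0.14) moved beyond their counting intervals. The other single ratios stayed within theirs wherever the member passed the floor of the setting. No symbol was on several lines, so summing lines changed nothing. For promoters, a minimum of 20 reads moved no difference beyond its interval. No paired analysis was possible because each condition has 1 library per assay, and no library could be left out. Among the 41 members at 1 FPKM or more, Gal and Crhr1 had the widest intervals on a log scale, 0.527 to 1.31 and 0.894 to 2.11. These too rest on the smallest read numbers.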
